A study of Homo sapiens with 4 samples.

Results

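Translation in 5′UTRs was measured by ribosome profiling, in which the stretches of mRNA covered by ribosomes survive nuclease digestion and are sequenced (ribosome protected fragments, RPFs). Of 8568 transcripts present in all 4 deposited tables, 286 had heavily translated 5′UTRs. They were chosen by their reads in untreated cells, with at least 50 reads in the 5′UTR and at least 0.5 5′UTR reads per CDS read, summed over both untreated libraries. ATF4, ATF5, DDIT3, PPP1R15A, PPP1R15B, AMD1 and AZIN1, which are well known for their upstream reading frames, were left out by the same rule. The cells were HEK293T, an established line from human embryonic kidney with the SV40 large T antigen. The 2 untreated libraries (A and B) came from cells without drug, and the 2 G418 libraries (A and B) from cells given 500 µg/mL G418, an aminoglycoside antibiotic that acts on ribosomal decoding, for 24 hr. Both groups were the same unmodified line. The comparison of G418 with untreated cells asks how these transcripts are translated when the drug is present.

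Most eukaryotic ribosomes load at the cap and scan the 5′UTR for a start codon. Where they meet an upstream AUG they can translate an upstream open reading frame (uORF), and fewer of them then reach the main CDS, so uORFs commonly lower the output of the protein. Some uORFs act as switches that respond to stress, to polyamines or to metabolites, and others encode small proteins of their own.

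The libraries held 2440196 to 6082490 reads on mRNAs, with the fewest in untreated replicate B. Of the embryonic kidney and progenitor markers examined, LHX1, SALL1 and VIM were listed in all 4 tables, PAX2 in the 2 G418 tables and NES in 1 table, whereas PTPRC, ALB, HBB and INS, which mark leukocytes, hepatocytes, erythroid cells and beta cells, were listed in none. With 2 libraries in each group, an exact two-sided permutation test of a single value cannot give a p-value below 0.333, so tests were fitted across all transcripts with edgeR. The study describes the replicates as biological. Only RPFs were analysed here, from bulk lysates, so a change in the amount of an mRNA and a change in ribosomes per mRNA cannot be told apart, nor can fewer cells of a type and less RNA per cell.

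For 31 of the 286 transcripts the deposited 5′UTR was not a region that could be measured. The counting left out the 6 nt before the start codon, which gave these transcripts a 5′UTR length of -5 to -1 nt, and their 5′UTR counts equalled their CDS counts or exceeded them by up to 1.46 times (median 1.05). RPS3, a protein of the small ribosomal subunit, was listed with 14749 5′UTR reads and 13505 CDS reads in untreated replicate A on a 5′UTR of -1 nt. ANAPC7, a subunit of the anaphase promoting complex, was listed with 1635 and 1628, and PBRM1, a chromatin remodeling subunit, with 1152 and 1138. These 31 transcripts are not described further. The remaining 255 are 2.99% of the 8535 transcripts whose deposited 5′UTR was at least 1 nt long.

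The 5′UTRs of the 255 transcripts were long and rich in upstream AUGs. Their median deposited length was 440 nt, with quartiles of 290 and 715 nt, against 136 nt for the other 8280 transcripts. Their median CDS was 927 nt against 1347 nt. The rule compared read counts and not reads per nucleotide, so the choice itself favors a long 5′UTR and a short CDS. GENCODE version 44 gave a 5′UTR sequence for 214 of the 255 (83.9%) and for 85.4% of the others. An upstream AUG was present in 90.2% of the 214 and in 40.2% of the other 5′UTRs, and a closed uORF, with its stop codon inside the 5′UTR, in 86.0% and 33.5%. The median number of upstream AUGs was 3 against 0. The share of G and C was lower, at a median of 62.5% against 67.6%. No AUG was found in the 5′UTRs of 21 of the 214, among them RPL39, SNRPF and HMGA1, which were among those with the most 5′UTR reads.

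Because longer 5′UTRs hold more AUGs by length alone, the 5′UTRs were also compared within ranges of length. From 200 to 400 nt, 88.3% of the 77 heavily translated 5′UTRs held an upstream AUG against 66.9% of the others, and from 400 to 800 nt the shares were 94.1% of 85 and 87.4%. Below 200 nt they were 69.6% of 23 and 24.0%. An upstream AUG in a strong context, with a purine 3 nt before it and G directly after it, was found in 17.4% against 6.49% below 200 nt, in 36.4% against 24.2% from 200 to 400 nt, and in 52.9% against 43.1% from 400 to 800 nt. The longest closed uORF had a median of 3 against 0, 18 against 6 and 30 against 24 codons in the same order. From 800 nt upward the values were close or ran the other way, with an upstream AUG in 100% against 99.1%, one in strong context in 65.5% against 67.0%, and a longest closed uORF of 45 against 56 codons. In that range only 58.0% of the 50 heavily translated 5′UTRs and 73.2% of the others had a sequence, so its comparison is void, and from 400 to 800 nt 78.5% of the others had one. These values describe the chosen transcripts and were not tested.

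**Figure D1:**
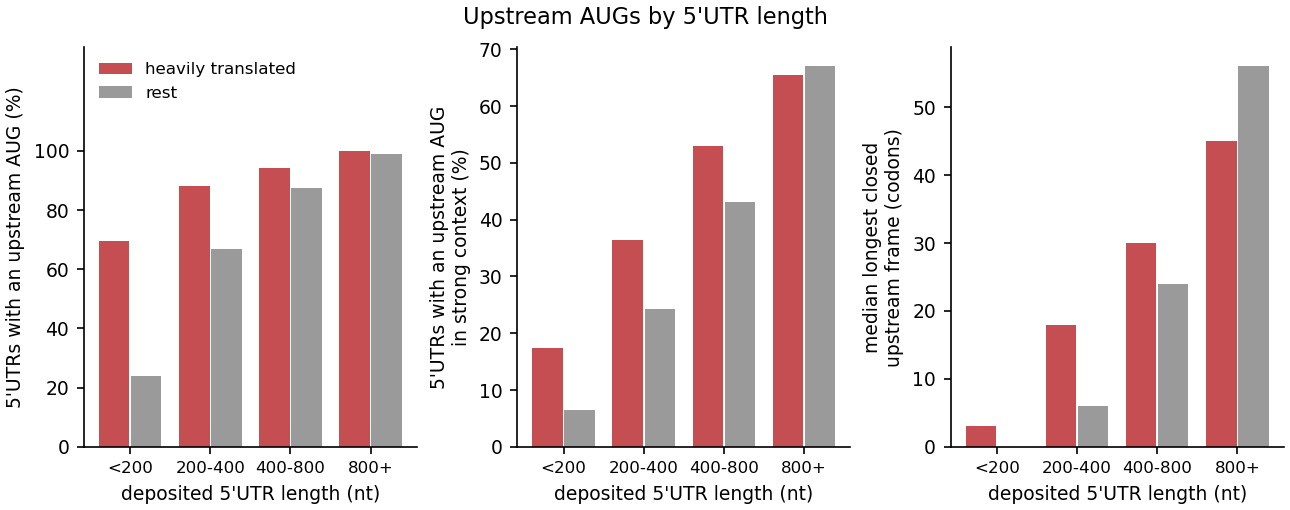
Share of 5′UTRs with an upstream AUG (ATG, left), share with an upstream AUG in strong context (middle) and median length of the longest closed upstream frame in codons (right), for heavily translated 5′UTRs (red) and the other transcripts (grey) in 4 ranges of deposited 5′UTR length. The red bars stand above the grey bars in each range below 800 nt, from 69.6% against 24.0% below 200 nt to 94.1% against 87.4% at 400 to 800 nt in the left panel, but not from 800 nt upward in the middle and right panels, where 58.0% of the heavily translated 5′UTRs had a sequence.

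The starts of the longest closed uORF are shown for 6 of the transcripts on which the results turn, from GENCODE version 44 on hg38, with the upstream ATG in capitals. They are UCP2 at chr11:73981611-73981631 on the minus strand, MIEF1 at chr22:39504222-39504242 on the plus strand, EIF5 at chr14:103334944-103334964 on the plus strand, CCNI at chr4:77075773-77075793 on the minus strand, ZNF146 at chr19:36236025-36236045 on the plus strand and NRARP at chr9:137302107-137302127 on the minus strand, all within 5′UTR exons of the transcripts counted.
UCP2: acacatagtATGaccattagg
MIEF1: cagtcccccATGgccccgtgg
EIF5: gcgctggggATGgggccagac
CCNI: cgccgccctATGgcgagaggg
ZNF146: agaaaccctATGaatttactg
NRARP: cgcggctggATGcggcggggt
These frames are 36 codons long in UCP2, 70 in MIEF1, 29 in EIF5, 24 in CCNI, 39 in ZNF146 and 50 in NRARP. The MIEF1 frame begins 311 nt before the main CDS, and 210 nt of this 5′UTR are annotated as the CDS of MIURF, a gene of its own in this annotation. The deposited tables hold counts for the whole 5′UTR, so the reads were not assigned to a single frame.

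The ratio of 5′UTR to CDS reads ranged widely. Summed over the 255 transcripts, 5′UTR reads per CDS read numbered 0.876 in untreated A and 0.950 in untreated B, and 0.716 in G418 A and 0.730 in G418 B. The other transcripts had 0.0381 and 0.0448 in untreated cells and 0.0356 and 0.0376 in G418-treated cells. The 255 transcripts held 13.2% to 15.3% of all 5′UTR reads in each library but 0.686% to 0.897% of CDS reads. Per nucleotide, the 5′UTR was denser than the CDS in 208 of the 255 in untreated cells and in 179 in G418-treated cells. The untreated values chose the transcripts and are a description. In the G418 libraries, which the choice did not use, 185 and 187 of the 255 still had at least 0.5 5′UTR reads per CDS read.

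**Figure D2:**
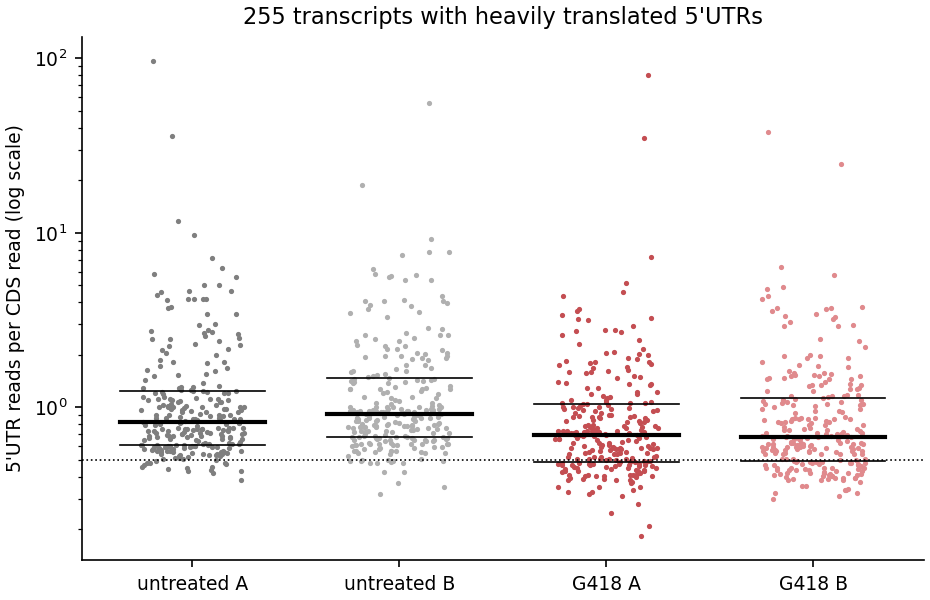
5′UTR reads per CDS read (log axis, 0.5 added to both counts) of the 255 transcripts in each library. Each point is a transcript, thick lines are medians, thin lines are quartiles and the dotted line marks a ratio of 0.5. The medians were 0.825 and 0.914 in the untreated libraries and 0.699 and 0.674 in the G418 libraries.

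The rule cuts through a continuous range. Just inside it were CHPF2, LRRFIP2 and ZNF749, each with 0.5 5′UTR reads per CDS read over the untreated libraries. Just outside were TAOK2 with 0.497, EXT1 with 0.491 and EEF2K with 0.490. CHPF2 had 81 and 39 5′UTR reads and 170 and 70 CDS reads in untreated cells (A and B), and TAOK2 had 108 and 47 5′UTR reads and 195 and 117 CDS reads. The values on the 2 sides of the threshold lie close together. At the other end, 96 of the 255 had a ratio of at least 1 in untreated cells.

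Some transcripts had almost all of their reads upstream. C19orf48 had 631 and 250 5′UTR reads in the untreated libraries and 679 and 551 in the G418 libraries (A and B in turn), while its annotated CDS of 321 nt (as counted) had 6, 4, 8 and 14. SLC35A4, a member of the nucleotide sugar transporter family whose upstream frame is known to encode a mitochondrial microprotein, had 447, 217, 469 and 384 5′UTR reads against 12, 11, 13 and 15 CDS reads. The 5′UTR reads of SLC35A4 were at least 19.7 times its CDS reads in every library, and for both genes the groups overlapped in CDS level. In the G418 libraries the next highest ratios were 5.31 for C19orf24, 5.2 for TMEM120B and 4.69 for GPBP1L1. GPBP1L1 holds 19 upstream AUGs. For C19orf24, TMEM120B and SLC35A4, 115, 396 and 294 nt of the 5′UTR lie within an annotated CDS of another transcript of the same gene, so reads there may belong to either. Such an overlap was found in 31 of the 214 (14.5%) against 7.43% of the other transcripts, and an overlap with the CDS of a differently named gene in 11 (5.14%) against 0.807%.

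The 10 transcripts with the most 5′UTR reads in G418-treated cells were those of BRD2, JUN, C19orf48, EIF5, RPL39, ZNF146, SOX4, CCNI, HMGA1 and SNRPF. Levels are given as counts per 1000000 reads (CPM) scaled by the TMM factors of the CDS counts. BRD2, a BET bromodomain protein, had 5′UTR levels of 181 and 190 CPM in untreated and 176 and 167 CPM in G418-treated replicates A and B, and 379 nt of its 5′UTR lie in an annotated CDS of another BRD2 transcript. JUN, a subunit of the AP-1 transcription factor, had 173 and 195 against 154 and 154 CPM. SOX4, a transcription factor of the SRY-related family, had 128.2 and 139 against 114 and 104 CPM. In all 3, both G418 values lay below both untreated ones. The same held for 25.1% of the 255 5′UTRs and, at a similar share, for 22.3% of all 8535. None of the 3 passed the test (adjusted p of 0.740, 0.340 and 0.299, edgeR quasi-likelihood). HMGA1, an architectural chromatin protein, had 102 and 118 against 94.9 and 101 CPM, with a highest G418 value below the lowest untreated value. SNRPF, a core protein of spliceosomal snRNPs, had 118 and 135 against 95.1 and 89.8 CPM (adjusted p = 0.0793).

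CDS reads of these transcripts were more often higher in G418-treated cells than those of all transcripts. They were higher in 55 of the 252 tested (21.8%) and lower in 0, against 5.31% higher and 3.21% lower among all 8494 transcripts tested (edgeR quasi-likelihood test, Benjamini-Hochberg adjusted p under 0.05). At an unadjusted p under 0.05, 101 were higher (40.1%, against 12.7% of all) and 4 lower (1.59% against 10.1%), and by DESeq2 15 of 192 were higher (7.81% against 1.55%) and 0 lower (against 1.91%). The count was 8 without G418 replicate B (3.17% against 0.683%), 11 without G418 replicate A (4.37% against 0.742%) and 87 without untreated replicate B (34.5% against 11.6%). The median log2 fold change over the 252 was 0.30, with quartiles of 0.07 and 0.55, against 0.00 for all tested, and with library totals in place of TMM factors it was 0.40 against 0.11. The 2 G418 values both exceeded the 2 untreated values for 137 of the 255, 53.7% against 26.5% of all 8535. Because untreated CDS reads were part of the rule, nothing is read from these counts alone, and a test that keeps choice and measurement apart is given further on.

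The rises ranged from 1.36-fold to 3.31-fold, with a median of 1.66-fold. CCNI, which encodes cyclin I, was among the 10 transcripts with the most 5′UTR reads, and 72 nt of its 5′UTR lie in an annotated CDS of another CCNI transcript. Its CDS level was 43.6 and 44.1 CPM in the untreated libraries (A and B) and 96.4 and 92.4 CPM in the G418 libraries, a log2 fold change of 1.11 ± 0.12 (SE, adjusted p = 1.1e-06). Both G418 values were above both untreated values, while its 5′UTR level was 71.1 and 109.7 CPM in untreated and 94.9 and 115.4 CPM in G418-treated cells, with overlapping groups. ZDHHC3, a palmitoyltransferase, went from 9.0 and 7.20 CPM to 24.9 and 23.1 CPM in the CDS (log2 fold change 1.51 ± 0.21 SE, adjusted p = 2.5e-05). EIF5, the GTPase-activating protein of the ternary complex that helps select start codons, went from 181 and 166 CPM to 268 and 261 CPM (log2 fold change 0.60 ± 0.10 SE, adjusted p = 1.3e-04). The 5′UTR of EIF5 had 149 and 138 CPM in untreated and 120 and 117 CPM in G418-treated cells, which did not pass the test (adjusted p = 0.311), and 208 nt of this 5′UTR lie in an annotated CDS of a separate gene, ENSG00000291313. The CDS rise of EIF5 missed the threshold without G418 replicate A (0.59). Untreated CDS reads helped to choose these transcripts, and every fit compares G418 with such reads, so the rises of single transcripts are a description.

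Other transcripts among the 55 are named after their values were seen. TNFRSF1A, a receptor for tumor necrosis factor, had 18.4 and 17.1 CPM in the CDS in untreated cells and 37.8 and 36.9 CPM with G418 (log2 fold change 1.06). PRELID1, which carries lipids between mitochondrial membranes, had 61.8 and 67.5 against 119 and 123 CPM (0.92). BAK1, a pore-forming inducer of apoptosis, had 21.96 and 21.1 against 35.7 and 36.0 CPM (0.73). In these 3 the G418 values lay well clear of the untreated ones, and none of their 5′UTRs passed the test. DR1, a repressor of transcription that binds the TATA-binding protein, had 50.9 and 42.7 against 76.1 and 85.2 CPM in the CDS, and ALKBH5, an RNA demethylase, had 35.8 and 35.5 against 58.6 and 66.0 CPM. BTG1, an antiproliferative factor, had 25.2 and 27.9 against 42.9 and 38.4 CPM. The 5′UTR of BTG1 had 21.2 and 26.1 against 22.4 and 21.4 CPM, with overlapping groups.

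Transcripts with few reads gave larger but less certain values. NRARP, an inhibitor of Notch signaling, had 6 and 10 CDS reads in the untreated libraries (A and B) and 31 and 39 in the G418 libraries. Its log2 fold change was 1.73 ± 0.42 (SE, adjusted p = 0.0071), and it missed the threshold without untreated replicate A (0.62, adjusted p = 0.421) and without G418 replicate B (1.41, adjusted p = 0.136). SRGAP2B, a partial duplicate of SRGAP2, had 28 and 13 CDS reads in untreated and 67 and 56 in G418-treated cells (log2 fold change 1.20 ± 0.26 SE, adjusted p = 0.0028). It shares sequence with SRGAP2 and SRGAP2C, and the authors kept a single alignment for reads that map to several places, so the value for this copy is uncertain. It also missed the threshold without either G418 library (adjusted p of 0.0716 and 0.0571).

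**Figure D3:**
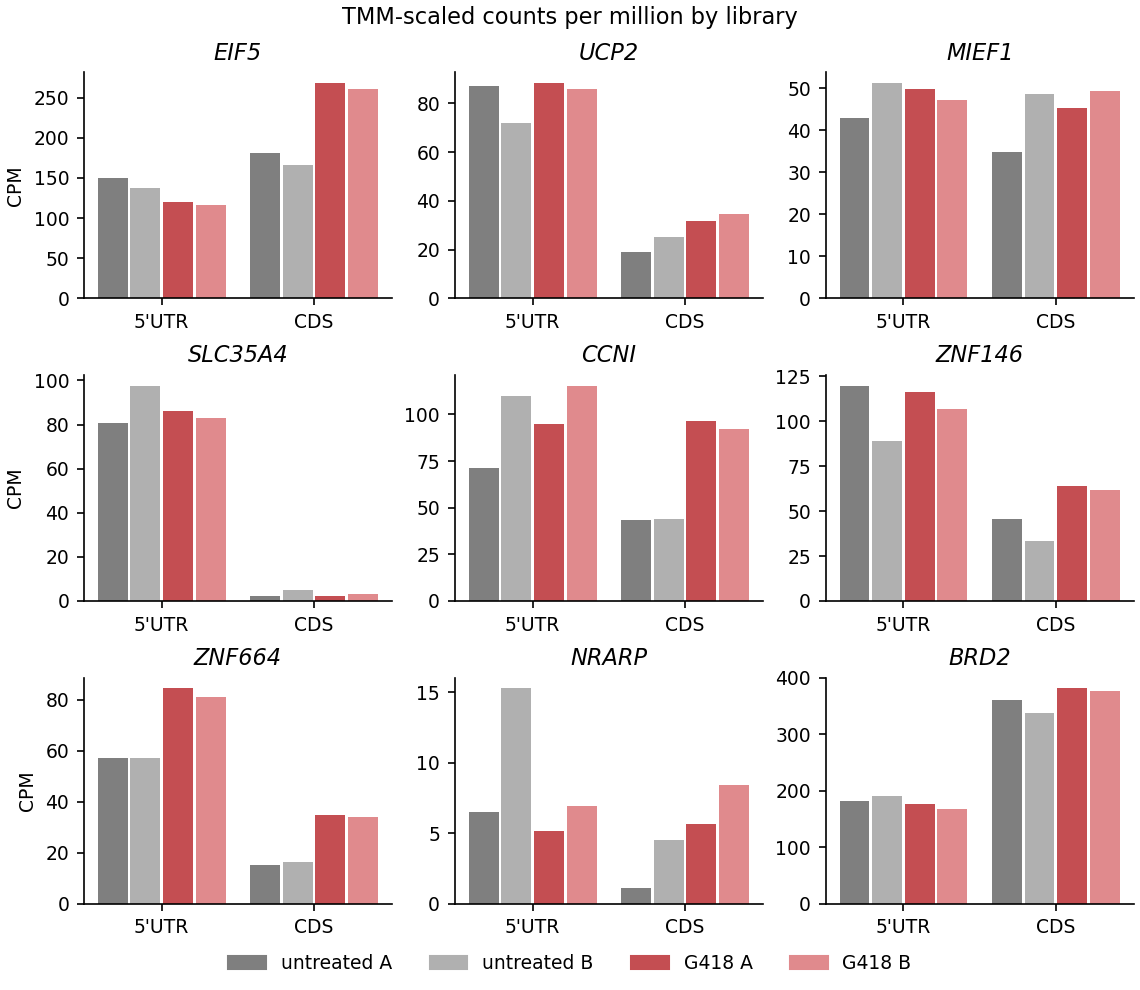
TMM-scaled counts per 1000000 reads (CPM) in the 5′UTR and the CDS of 9 transcripts, with a bar for each library (grey untreated A and B, red G418 A and B). In EIF5, UCP2, CCNI, ZNF146, ZNF664, NRARP and BRD2 both G418 bars stand above both untreated bars in the CDS. EIF5 had 268 and 261 against 181 and 166 CPM. BRD2 had 382 and 376 against 361 and 338 CPM and did not pass the test (adjusted p = 0.483, edgeR quasi-likelihood). SLC35A4 and MIEF1 overlap in the CDS.

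Few of the 5′UTRs themselves passed the test. In simulated data this test called 29% of transcripts with a log2 change of 1, against 86% for CDS reads. Among those with at least 100 reads the shares were 55.4% and 89.9%. Of the 255 transcripts, 233 had at least 100 reads in each region over the 4 libraries. The number called therefore cannot be compared between the 2 regions. Of 255 tested, 1 was higher and 1 lower in G418, against 0.228% higher and 2.76% lower among all 4388 transcripts tested. At an unadjusted p under 0.05, 9 were higher (3.53%, against 2.76% of all tested) and 13 lower (5.10% against 11.1%). By DESeq2 0 were higher and 1 of 171 lower (0.585% against 7.22%). Without untreated replicate A 15 were lower (5.88% against 6.65%), without untreated replicate B 5 (1.96% against 4.33%), and without either G418 library 0, as among all tested. The median log2 fold change was -0.07 against -0.13 for all tested, and it was 0.08 against 0.01 when the 5′UTR counts were scaled by their own TMM factors. The 5′UTR that rose was that of ZNF664, a C2H2 zinc finger gene, from 57.1 and 57.1 CPM in the untreated libraries to 84.5 and 81.1 CPM in the G418 libraries (log2 fold change 0.54, adjusted p = 0.0493). Its CDS rose further, from 15.1 and 16.2 CPM to 34.8 and 33.9 CPM (log2 fold change 1.15 ± 0.17 SE). The 5′UTR that fell was that of RPL39, a protein of the large ribosomal subunit, from 178 and 209 CPM to 109 and 120 CPM (log2 fold change -0.75 ± 0.13 SE, adjusted p = 8.4e-04). The RPL39 CDS had 388 and 333 CPM in untreated and 352 and 353 CPM in G418-treated cells. RPL39 has processed pseudogenes of near-identical sequence, so its counts are uncertain, and its 5′UTR is 48 nt long as counted.

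For the 55 transcripts chosen by a called CDS rise, the median log2 fold change of 5′UTR reads was 0.01. A lower ratio in these 55 follows from how they were chosen and is no result.

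**Figure D4:**
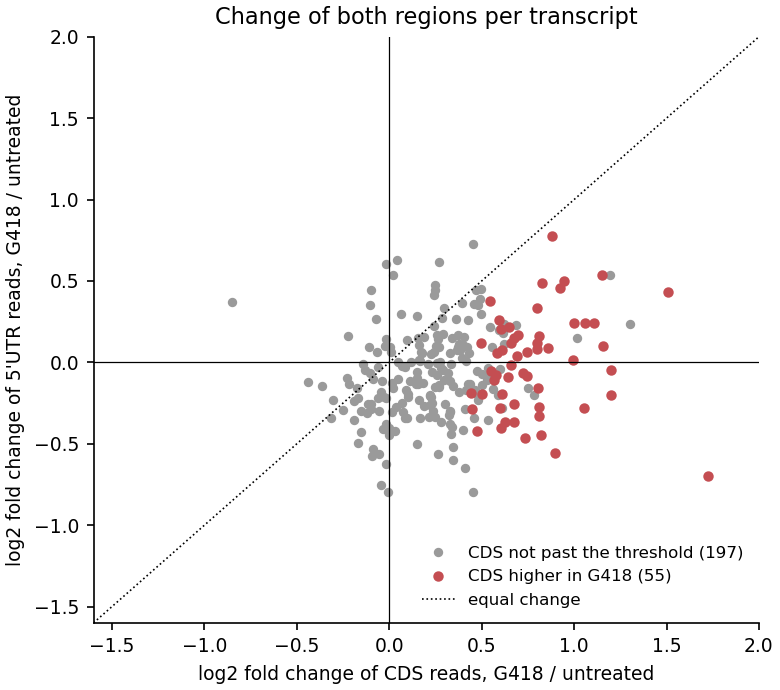
Fitted log2 fold change of 5′UTR reads (y axis) against that of CDS reads (x axis), G418 over untreated, for the 252 transcripts with both fits. Each point is a transcript, red where CDS reads were higher at an adjusted p under 0.05 (55), and the dotted line marks equal change. The red points lie below the dotted line, spread from -0.70 to 0.78 on the y axis.

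The ratio itself carries the counting error of both regions, and few transcripts passed its test. In simulated data that test called 15.5% of transcripts with a log2 change of 1, and 31.3% of those with at least 100 5′UTR reads. 5′UTR reads per CDS read were lower in 1 of the 255 and higher in 0, against 0.593% lower among all 4386 tested. At an unadjusted p under 0.05, 57 were lower (22.4%, against 11.7% of all tested) and 1 higher (0.392% against 1.92%). By DESeq2 0 passed in either direction, with 14 lower (5.49% against 4.15%) and 0 higher at an unadjusted p under 0.05. The count of lower ratios was 26 without untreated replicate A (10.2%, against 6.82% of all) and 15 without untreated replicate B (5.88% against 2.87%). The median log2 change was -0.38 against -0.22 for all tested, and -0.27 against -0.11 relative to library-wide 5′UTR and CDS totals. Both G418 libraries lay below both untreated ones for 132 of the 255 (51.8%), against 31.5% of all. The untreated values of this ratio chose the transcripts, so these numbers are a description.

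The transcript past the threshold was NRARP. It had 36 and 34 5′UTR reads in the untreated libraries (A and B) and 28 and 32 in the G418 libraries, with the CDS reads given above. Its ratio went from 4.38 over the untreated libraries to 0.857 over the G418 libraries (log2 change -2.33 ± 0.46 SE, adjusted p = 0.0156, edgeR quasi-likelihood), and by DESeq2 it did not pass (adjusted p = 0.667). EIF5 was close to the threshold, with a ratio of 0.827 in untreated and 0.448 in G418-treated cells (log2 change -0.89 ± 0.21 SE, adjusted p = 0.0602). CCNI had 1.88 in untreated and 1.10 in G418-treated cells (log2 change -0.83 ± 0.26 SE, adjusted p = 0.128). With the letter A or B as a replicate block both passed (adjusted p of 7.8e-04 for EIF5 and 0.0036 for CCNI), as they did with CDS reads as an offset (0.0030 and 0.0253). EIF5 also passed with at least 100 reads in each region (0.0279) and relative to library-wide totals (0.0472), and by DESeq2 neither passed (0.973 and 0.9997).

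To keep the choice apart from the measurement, transcripts were chosen again in a single untreated library, with at least 25 5′UTR reads and the same ratio, and then compared in the other untreated library and both G418 libraries. The lone untreated library is assumed to vary like the others. The splits are not independent of each other. Both use the same G418 libraries, and each untreated library chose in its own split and was the only control in the other. The transcripts were also largely those of the first choice, which held 240 of the 290 chosen in replicate A and 181 of the 214 chosen in B. CDS reads were again more often higher than among all tested. Of 287 tested transcripts chosen in untreated replicate A, 39 (13.6%) had more CDS reads in G418, against 7.08% of all tested, and 6 had fewer. Of 213 chosen in untreated replicate B, 82 (38.5%) had more, against 11.6%, and 4 had fewer. The 6 and 4 with fewer were 2.09% and 1.88% of those tested, against 781 and 1019 of all 8494 transcripts in these fits. The median log2 fold changes were 0.29 and 0.33, against 0.01 for all tested in both fits, and 210 of 287 and 182 of 213 were above 0. Those below 0 made up 26.8% and 14.6%, against 49.2% and 48.5% of all tested. The test of CDS reads in this split was chosen after the data had been seen, and DESeq2 called 7 of 52 (13.5% against 1.64%) and 10 of 69 (14.5% against 2.16%) higher.

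For 5′UTR reads per CDS read the split gave different pictures. Of 290 transcripts chosen in untreated replicate A, 24 (8.28%) were lower, close to the 6.82% of all tested, with a median log2 of -0.42 against -0.36. Of 214 chosen in untreated replicate B, 16 (7.48%) were lower against 2.87%, with a median of -0.29 against -0.11. Changes below 0 made up 79.0% and 76.6% of the 2 choices, against 70.4% and 58.6% of all tested. At an unadjusted p under 0.05, 58 (20%, against 18.2% of all tested) and 47 (22% against 10.8%) were lower. DESeq2 gave an adjusted p to 18 of the 290 and to all 214, and 0 passed as lower in both. The 290 had median ratios of 0.844 in replicate A, which chose them, 0.922 in untreated replicate B, and 0.699 and 0.670 in the G418 libraries. The untreated libraries themselves differed in this measure, since the ratio over all other transcripts was 0.0448 in B and 0.0381 in A.

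CDS change also followed the ratio over its whole range. Transcripts were grouped by their ratio in a single untreated library, and the CDS change was taken from the fit without that library. With untreated replicate A left out, the median log2 fold change was -0.04 for the 4711 transcripts with under 0.05 5′UTR reads per CDS read, 0.05 at 0.05 to 0.1, 0.10 at 0.1 to 0.25, 0.12 at 0.25 to 0.5, 0.29 at 0.5 to 1 and 0.31 for the 98 at 1 or more. With untreated replicate B left out, it was -0.07, -0.02, 0.06, 0.17, 0.28 and 0.46 in the same order, the last for 63 transcripts. The medians of CDS change thus rose step by step in both. Medians of 5′UTR change rose over the same ranges, for transcripts with enough 5′UTR reads. They went from -0.43 to -0.07 with replicate A left out and from -0.18 to 0.07 with replicate B left out. The change in 5′UTR reads per CDS read had a median of -0.40 in both the lowest and the highest range with replicate A left out. With replicate B left out these medians were -0.09 and -0.43. The share with more CDS reads rose from 7.87% to 47.6% with replicate B left out, and from 5.33% to 15.7% at a ratio of 0.5 to 1 with replicate A left out, where it was 12.2% at 1 or more. The amounts of the mRNAs were not analysed here, and their part in this relation was not tested.

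**Figure D5:**
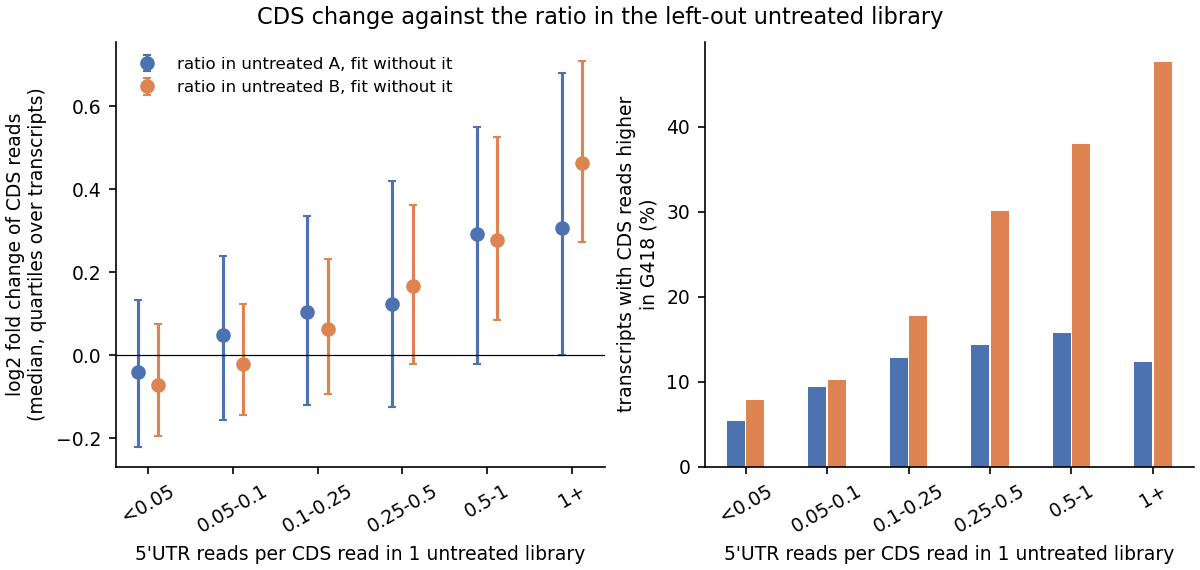
Left, median log2 fold change of CDS reads (points, with bars to the quartiles over transcripts) by the number of 5′UTR reads per CDS read in untreated replicate A (blue) or B (orange), from the fit without that library. Right, share of transcripts in each range with CDS reads higher in G418, in percent. The medians go from -0.04 and -0.07 in the lowest range to 0.31 and 0.46 in the highest.

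Of 22 genes listed for published uORFs, 14 were in all 4 tables, and 5 met the rule, among them EIF5, UCP2, MIEF1 and SLC35A4. UCP2, a mitochondrial carrier of the uncoupling protein family, had 5′UTR levels of 87.0 and 71.97 CPM in the untreated and 88.3 and 85.9 CPM in the G418 libraries (A and B). Its CDS level was 18.9 and 25.2 CPM in untreated and 31.7 and 34.7 CPM in G418-treated cells (log2 fold change 0.66 ± 0.17 SE, adjusted p = 0.0113, edgeR quasi-likelihood). This rise did not pass by DESeq2 (0.62, adjusted p = 0.216). It also no longer passed without untreated replicate A (0.39) or without either G418 library. Thus the groups overlapped in the 5′UTR and did not in the CDS. MIEF1, a mitochondrial outer membrane protein that recruits the fission machinery and whose uORF encodes a protein of the mitochondrial ribosome assembly pathway, had 42.8 and 51.3 against 49.8 and 47.3 CPM in the 5′UTR. In its CDS it had 34.9 and 48.6 against 45.3 and 49.4 CPM, and both regions overlapped.

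The 9 listed genes that did not meet the rule had 0.00445 to 0.237 5′UTR reads per CDS read in untreated cells, with a median of 0.0789. IBTK had the highest of these ratios and EPRS the lowest. Over the 14, CDS reads were higher in 3 (EIF5, UCP2 and CEBPG) and lower in 0, against 5.31% and 3.21% of all tested, and 0 of the 11 tested for the ratio passed, against 0.593% lower among all. CEBPG, a basic leucine zipper transcription factor, had 125 and 43 CDS reads in the untreated libraries (A and B) and 190 and 131 in the G418 libraries (log2 fold change 0.56, adjusted p = 0.0318).

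Genes were also grouped by symbol alone, with C2H2 zinc finger genes taken as those with ZNF, ZSCAN, ZKSCAN, ZBTB or ZFP symbols. Zinc finger genes with other symbols, such as IKZF5 and KLF9, count under other transcription factors. C2H2 zinc finger genes gave 17 of the 255, or 6.12% of the 278 such genes measured, against 2.99% for all transcripts. Other transcription factors gave 13 (8.61% of 151), among them JUN, SOX4, MAF and the SMAD inhibitors SMAD6 and SMAD7. E3 ligases gave 5 (6.41% of 78), vesicle traffic genes 8 (5.10% of 157) and TMEM genes 8 (6.90% of 116). Each share was above that of all transcripts. These are counts, with no test.

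CDS reads were higher in 4 of the 8 vesicle traffic genes, against 21.8% of the 252 tested and 5.31% of all transcripts, among them RAB10, RAB24 and STX16, named after their values were seen. RAB10, a small GTPase of exocytic and recycling transport, went from 111 and 103 CPM to 145 and 149 CPM in the CDS, and STX16, a SNARE of the trans-Golgi network, from 10.1 and 9.45 CPM to 17.6 and 17.0 CPM. Of 16 zinc finger genes tested, 2 were higher, ZNF146 and ZNF664. ZNF146, made mainly of zinc fingers, went from 45.5 and 33.3 CPM to 63.8 and 61.7 CPM in the CDS (log2 fold change 0.61 ± 0.14 SE, adjusted p = 0.0049), and missed the threshold by DESeq2 (adjusted p = 0.0572) and without either G418 library, with overlapping 5′UTR levels of 119.7 and 89.1 against 116 and 106.6 CPM. Of 13 other transcription factors 1 was higher (IKZF5), of 5 E3 ligases 1 (RNF41) and of 8 TMEM genes 0, and 0 were lower in any of the 5 groups. With so few genes, no difference between the groups is read from these counts.

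Readthrough of the normal stop codon, which the study set out to measure, rose in most of the transcripts with enough reads to test. Reads between the stop codon and the first in-frame stop codon of the 3′UTR were tested per CDS read, and 47 of 69 tested rose (68.1%) and 0 fell, against 82.6% higher among all 2827 tested. A transcript could enter this test on its G418 reads alone, as ALKBH3, XRCC3 and ATG101 did with 0 reads in both untreated libraries. The minimum thus favored transcripts that rise, so the counts of rises and falls in this test are a description. The densities given below did not use that minimum. At an unadjusted p under 0.05, 48 were higher (69.6% against 84.3%) and 0 lower, and by DESeq2 15 were higher (21.7% against 48.5%) and 0 lower. The count was 23 without untreated replicate A (33.3% against 55.3%), 23 without G418 replicate A (33.3% against 53.2%) and 25 without G418 replicate B (36.2% against 60.3%). Densities were summed over transcripts with enough mRNA reads by the minimum of the study, a set that differed between libraries. It held 173 and 70 transcripts in untreated A and B, with 171 and 34 readthrough reads, and 196 and 174 in G418 A and B. The summed readthrough density was 2.96% (A) and 1.80% (B) of the CDS density in untreated cells and 20.1% (A) and 18.7% (B) with G418. The other transcripts had 1.96% and 1.64% in untreated and 15.7% and 14.9% in G418-treated cells. The median readthrough density per transcript, as a fraction of its CDS density, was 0.194 and 0.189 against 0.204 and 0.187 for the other transcripts in the G418 libraries, so the higher sum did not go with a higher median in replicate A. Stop codon use was close in both sets, with UGA in 51.0% and 50.2%.

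HMGA1 contributed the most readthrough reads of the transcripts named here, with 6 and 1 in the untreated libraries (A and B) and 127 and 125 in the G418 libraries. Its ratio of these reads to CDS reads went from 0.514% to 15.7%. RPL39 had 8 and 2 against 126 and 60 reads. The fit also called ALKBH3, a demethylase of alkylated nucleic acids, XRCC3, a protein of homologous recombination, and ATG101, a subunit of the autophagy initiation complex, as higher. Each had 0 reads in both untreated libraries, so that only a lower bound of the rise can be given and no order among the rises. ALKBH3 had 13 and 12 reads in the G418 libraries, XRCC3 11 and 10, and ATG101 9 and 13. In place of 0, an assumed upper limit of 3 reads over the untreated group was used. With it, readthrough per CDS read was at least 4.58-fold higher for ALKBH3, at least 4.43-fold for XRCC3 and at least 4.00-fold for ATG101. These bounds leave out the counting error of the G418 reads.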

How the data were processed

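The deposited counts are raw RPFs, assigned by the authors to each region of 1 chosen transcript for a gene. The RPM values deposited beside them scale those RPFs to 1000000 mapped reads. Cells were lysed with cycloheximide, reads of 28 to 35 nt were aligned to hg38 with STAR (GENCODE version 30), and the 6 nt before the start codon, the first 18 nt and the last 15 nt of the CDS were left out. Whole reads recovered from RPM (100% whole within 0.01) equalled the deposited counts or exceeded them by 1, in 99.9% of CDS counts of G418 replicate A. They were used for readthrough and as an alternative elsewhere.

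Counts were tested with edgeR 4.0.16 quasi-likelihood tests (R 4.3.3) over all 4 libraries, with Benjamini-Hochberg adjustment and a threshold of 0.05. CDS counts used TMM and filterByExpr, and 5′UTR counts the CDS factors and at least 20 reads. The ratio was a region by condition interaction over both regions (at least 20 reads in each). Readthrough used log(CDS reads + 0.5) as offset and, per condition, the minimum of mRNA reads that the study set. It also used at least 10 readthrough reads, which G418 reads alone could supply. Fold changes of the fits include edgeR's small prior count. DESeq2 1.42.0, a replicate block, other minimums and scalings, and leaving out each library were alternatives. The fits were tested on simulated data, with a log2 change of 1 set in 200 transcripts for each measure. They called 86% of the changed transcripts for CDS reads, 29% for 5′UTR reads, 15.5% for the ratio and 6% for readthrough. Among those with at least 100 5′UTR reads, the shares were 55.4% for 5′UTR reads and 31.3% for the ratio. Counts of called transcripts therefore cannot be compared between these measures. Sequences and overlaps came from GENCODE version 44 on the same build, where CDS length equalled the deposited length plus the omitted nucleotides and the 5′UTR was at least as long as counted. Tables were made with Python 3.11.15 and pandas 2.3.3.

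The transcripts and lists were chosen with earlier results of these data known. Those named are members with published uORFs, the 10 with most G418 5′UTR reads, the largest called changes (up to 5 for the ratio, 3 for CDS and readthrough) the same way in A and B, the 3 on each side of the ratio of 0.5, the 3 with most reads among those with a 5′UTR below 1 nt and among those overlapping a CDS, and the 5 highest G418 ratios. Only NRARP qualified for the ratio. Some members that the rule names are not reported here.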

Additional observations from a re-analysis of the deposited data

How the results depend on the processing

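The number of transcripts meeting the rule was 286, and it was 559 at a ratio of 0.25, 127 at a ratio of 1 and 172 with at least 100 5′UTR reads. Medians of CDS reads stayed above 0 and medians of 5′UTR reads per CDS read below 0 in every alternative run, but counts of called transcripts moved. For the ratio, 1 transcript was lower, against 0 by DESeq2, 15 with CDS reads as an offset, 8 with at least 100 reads in each region, 3 with no minimum, 3 with recovered reads, 2 relative to library-wide totals (median -0.27) and 1 to 26 when a library was left out, the most without untreated replicate A. The 55 higher CDS counts were 15 by DESeq2 and 8 to 87 when a library was left out (8 without G418 replicate B, 11 without G418 replicate A, 87 without untreated replicate B), with medians of 0.29 to 0.35, and library totals gave a median of 0.40. For 5′UTR reads, 1 was lower, 2 with no minimum and 0 to 15 when a library was left out. The median of the 5′UTR change reversed from -0.072 to 0.083 with TMM factors of the 5′UTR counts and ranged from -0.18 to 0.00028 when a library was left out. For readthrough, 47 were higher, 15 by DESeq2, 28 of 32 with at least 20 reads (median 2.94) and 23 to 46 when a library was left out, where the medians were 2.52 to 4.96. The whole 3′UTR gave a median of 1.71, and 5′UTRs that overlap no annotated CDS one of 2.46. Chosen in untreated replicate A and tested without it, DESeq2 called 0 lower ratios and 7 higher CDS counts, and chosen in replicate B 0 and 10. Where an alternative has no share of all tested beside it, nothing particular to these transcripts is read from its count. The cause of these differences was not tested.

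The labels give libraries of both groups the letters A and B but do not say that a letter marks a shared batch, and 2 pairs are too few to tell. Deviations of same-letter libraries correlated at 0.281 for CDS reads over 5715 transcripts and at 0.253 for the ratio over 1329. With the letter as a replicate block, 24 of the chosen transcripts were lower in the ratio and 66 higher in CDS reads. In the same fits 3 were lower in 5′UTR reads and 31 higher in readthrough. No share of all transcripts is given for these fits, so nothing particular to the chosen ones is read from the counts. Their medians were -0.37 for the ratio and 0.31 for CDS reads, against -0.24 and 0.00 for all tested. For 5′UTR reads the median was -0.07 against -0.15, and for readthrough 2.82 against 3.18.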
